A study of Mus musculus with 7 samples.

Results

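Both arms of 4 microRNA (miRNA) hairpins, miR-744, miR-423, miR-151 and miR-674, were described in small RNAs bound to Ago2. They are 8 of the 1078 rows of the deposited table, 1 row for each arm, and 4 of the 402 hairpins that had enough counts to be tested. The 8 rows were found by name and were selected on large differences of arm share or abundance between a mutant and wild type in these same libraries. Their differences from wild type are therefore given as descriptions, with no test.

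A miRNA hairpin is cut by Drosha and Dicer into a short duplex with an arm from its 5' side (5p) and an arm from its 3' side (3p). Argonaute keeps 1 arm as the guide, which pairs with target messages through its seed, bases 2 to 8, and the other arm is usually released and degraded. The arm with the less stably paired 5' end is favoured in general, and a pocket in the MID domain of Argonaute holds the 5' phosphate and first base of the guide, with a known preference for U or A.

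An anti-Flag antibody pulled Flag-tagged Ago2 out of cultured mouse embryonic stem cells on an Ago-null background, which all 7 libraries share. The groups are wild-type Ago2 (WT), the mutants GKT_GKGT, PGKTP_AAAAA, K566A, Q548A and R792A_C793A, and a control named empty, each with 1 library. K566A and Q548A change residues of the MID domain, R792A_C793A changes residues of the PIWI domain, and the other 2 are named for a loop of the MID domain near the first base of the guide. For the promoter behind Ago2, its level and the number of clones, nothing is stated in the labels, and the mutations cannot be seen in counts of miRNAs.

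With 1 library per group, no difference has a replicate check, no p-value is given, and every 95% interval covers counting error only. The reads carry no molecular identifiers. Totals ran from 14914048 counts in K566A to 94842507 in WT, against 33461 in the empty control. Levels are counts per 1000000 (CPM) of these totals. Less of an arm in the cell and less of it on Ago2 cannot be told apart in these data. Stem cell miRNAs (24 mature names of the miR-290 and miR-302 clusters, with miR-302c-5p and miR-367-5p at 0) made up 59.7% to 80.0% of counts in the Ago2 libraries, with K566A the lowest. Fibroblast miRNAs (18 names, 0 at 0) made up 0.0909% to 0.554% and miRNAs of differentiated tissues (13 names, of which miR-122-3p, miR-1a-1-5p and miR-1a-2-5p were at 0) 0.0261% to 0.194%, both highest in K566A, and their part in the results below was not tested. miR-292-5p alone held 21.7% of counts in K566A and 57.3% to 70.5% in the other Ago2 libraries, which bears on the CPM of every other miRNA, since CPM is a share of the total. The share of arms within a hairpin does not use library size.

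The arms are printed first because their first bases and seeds are what Argonaute holds and what decides their targets. RefSeq (GRCm38.p6) gave 6 of the 8 sequences, and miR-151-5p and miR-151-3p had no entry. Capitals mark the seed, and each is written 5' to 3'.
mmu-miR-744-5p: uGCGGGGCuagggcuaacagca
mmu-miR-744-3p: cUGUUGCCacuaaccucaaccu
mmu-miR-423-5p: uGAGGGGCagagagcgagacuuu
mmu-miR-423-3p: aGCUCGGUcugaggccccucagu
mmu-miR-674-5p: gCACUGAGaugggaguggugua
mmu-miR-674-3p: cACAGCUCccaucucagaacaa

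The 6 seeds are all different. Among the named miRNAs of the table that have a RefSeq sequence, miR-1947-3p shares the seed of miR-674-5p, and no name shares any of the other 5 seeds. A move of counts from 1 arm to the other thus changes the seed that Ago2 carries. The first base is U for miR-744-5p and miR-423-5p, G for miR-674-5p, A for miR-423-3p, and C for miR-744-3p and miR-674-3p. The 3 hairpins from which these arms come are printed to show how the arms face each other, with both arms in capitals.
miR-744 hairpin: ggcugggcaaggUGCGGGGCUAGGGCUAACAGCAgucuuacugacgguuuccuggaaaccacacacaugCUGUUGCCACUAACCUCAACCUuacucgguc
miR-423 hairpin: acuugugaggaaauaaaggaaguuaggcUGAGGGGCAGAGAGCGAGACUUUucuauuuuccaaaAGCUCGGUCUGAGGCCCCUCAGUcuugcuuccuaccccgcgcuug
miR-674 hairpin: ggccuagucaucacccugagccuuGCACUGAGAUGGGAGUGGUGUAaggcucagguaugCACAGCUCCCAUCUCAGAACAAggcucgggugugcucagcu

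In the structure of lowest predicted energy, the first 4 bases of miR-744-5p held 1 G-C pair and 2 unpaired bases, against 2 G-C pairs and 0 unpaired bases for miR-744-3p. For miR-423 both ends held 2 G-C pairs and 0 unpaired bases. For miR-674 both ends held 2 G-C pairs, with 2 unpaired bases at the 5p and 1 at the 3p end. In this measure miR-674 had the less paired end at 5p, while its 3p arm held 98.5% of its WT counts. Whether end pairing bears on the arm shares was not tested.

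In mm9, miR-744-5p lies at chromosome 11, 65548301 to 65548322, and miR-744-3p at 65548244 to 65548265. On the same chromosome, miR-423-5p lies at 76891624 to 76891646 and miR-423-3p at 76891588 to 76891610. On chromosome 15, miR-151-5p lies at 73085285 to 73085305 and miR-151-3p at 73085250 to 73085270. miR-674-5p lies on chromosome 2 at 117010887 to 117010908 and miR-674-3p at 117010922 to 117010943. By name in GENCODE M21, Mir744 lies in an intron of Map2k4, a kinase of the stress-activated MAP kinase pathway, Mir423 in an intron of Nsrp1, a splicing regulator, and Mir151 in an intron of Ptk2, the focal adhesion kinase, each on the strand of its host. Mir151 also lies in an intron of an antisense gene, 1700085D07Rik, and Mir674 lies between genes. None of the 8 rows overlaps another row of the table, and each mature name has a single row.

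The label arm-switching, under which the 4 hairpins were grouped, held for 1 of them. In miR-423 the larger arm was 3p in WT and 5p in each of the 5 mutants. In miR-744 the 5p arm was the larger in 6 of 6 Ago2 libraries, and in miR-151 and miR-674 the 3p arm was, so in these 3 hairpins the share of the rare arm changed without a switch. Among all 402 hairpins tested, 64 (15.9%) had a different larger arm in at least 1 pair of Ago2 libraries, counting only shares whose intervals lay wholly on either side of 50%. Of these, 3 had WT on one side and all 5 mutants on the other, namely miR-423, miR-18a and miR-193b.

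**Figure D1:**
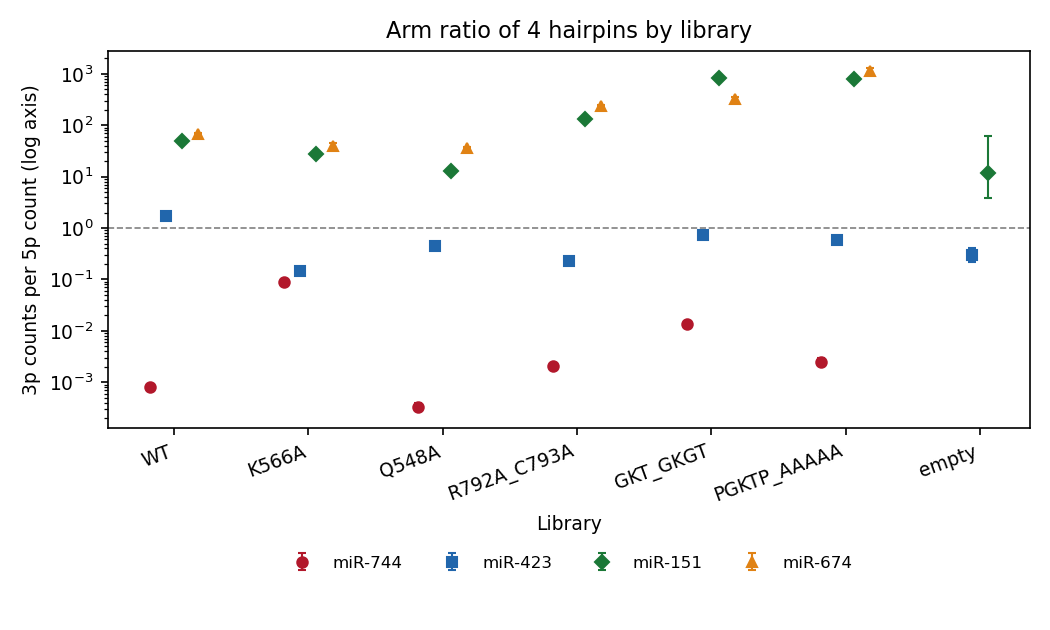
Counts of the 3p arm per count of the 5p arm (log axis) for 4 hairpins in 7 libraries, with exact 95% intervals of counting error; the dashed line marks equal arms, and a library with an arm at 0 is left out. miR-423 is the hairpin that crosses the line, from above it in WT to below it in each mutant and in the empty control, while miR-744 stays below and miR-151 and miR-674 stay above.

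Calls used 1 rule throughout. A hairpin was called when the 95% interval of its 3p to 5p odds ratio against WT lay wholly past 2-fold, and a single arm when the interval of its CPM ratio did. These limits leave the background high in some mutants. In K566A 19.2% of tested hairpins were called towards 3p and 18.7% towards 5p, and the 4 hairpins had 1 call each way. In Q548A the background was 2.99% towards 3p and 6.22% towards 5p, and 2 of the 4 were called towards 5p. In R792A_C793A it was 8.71% and 11.4%, in GKT_GKGT 18.2% and 11.2%, and in PGKTP_AAAAA 13.9% and 10.7%, and in each of these 3 mutants 3 of the 4 were called towards 3p and 1, miR-423, towards 5p. Since such calls chose the hairpins, nothing is read from these counts. All comparisons with WT share its 1 library.

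miR-744 is a hairpin whose 5p arm is the usual guide. The 3p arm held 0.0798% of its counts in WT (446 of 559206 counts, interval 0.0725% to 0.0875%), 8.12% in K566A, 1.35% in GKT_GKGT, 0.252% in PGKTP_AAAAA, 0.209% in R792A_C793A and 0.0333% in Q548A. K566A and GKT_GKGT were high and Q548A low. The change in log2(3p/5p) was 6.79 (6.62 to 6.96) in K566A and 4.10 (3.96 to 4.25) in GKT_GKGT. It was 1.67 (1.38 to 1.94) in PGKTP_AAAAA, 1.39 (1.21 to 1.58) in R792A_C793A and -1.26 (-1.53 to -0.998) in Q548A, the last not called. Of the 402 hairpins, 4 had a higher value in K566A and 7 in GKT_GKGT. The 402 include hairpins with an arm near 0 counts, whose values depend on the pseudocount. Some of the 4 in K566A had an interval with no upper bound.

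The levels of both arms are given next, on the CPM scale. mmu-miR-744-5p stood at 5891 CPM in WT, 606 CPM in K566A, 5107 CPM in Q548A, 4559 CPM in R792A_C793A, 3219.6 CPM in GKT_GKGT and 2304 CPM in PGKTP_AAAAA. It was below WT in 5 of 5 mutants, and called lower in K566A (log2 ratio -3.28, -3.31 to -3.25) and PGKTP_AAAAA (-1.35, -1.37 to -1.34). mmu-miR-744-3p stood at 4.70 CPM in WT, 53.5 CPM in K566A, 1.70 CPM in Q548A, 9.54 CPM in R792A_C793A, 44.2 CPM in GKT_GKGT and 5.82 CPM in PGKTP_AAAAA. It was called higher in K566A (3.51, 3.34 to 3.68) and GKT_GKGT (3.23, 3.09 to 3.38) and lower in Q548A (-1.47, -1.74 to -1.20). In K566A both arms thus moved by about 10-fold in opposite directions, to 0.103 of WT for 5p and 11.4 times WT for 3p. In GKT_GKGT the 3p arm reached 9.40 times WT while the 5p arm stood at 0.546 of it. In PGKTP_AAAAA the 3p arm was not called (0.31, 0.03 to 0.58).

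The K566A value of miR-744 rests on 9035 counts of 5p and 798 of 3p. Median-of-ratios scaling shifts every K566A ratio by -0.84, which leaves miR-744-3p at 2.67 and miR-744-5p at -4.12. It shifts every PGKTP_AAAAA ratio by 0.62, which puts miR-744-5p at -0.73 and miR-744-3p at 0.93, both not called. With TMM factors they stood at -0.93 and 0.73 there, also not called, so how much of the arm change in PGKTP_AAAAA lies in each arm depends on the library size. The empty control held 165 counts of miR-744-5p and 0 of miR-744-3p, which allows a 3p share of up to 1.82%.

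Set directly against each other, the mutants differed past 2-fold in the arm ratio of miR-744 in 9 of 10 pairs. The share of such pairs over all tested hairpins was not counted, and the members were selected on large differences. Nothing is therefore read from this count, nor from the counts of such pairs given below for the other hairpins. From the highest to the lowest 3p share the order was K566A, GKT_GKGT, PGKTP_AAAAA, R792A_C793A and Q548A, with WT between the last 2. PGKTP_AAAAA and R792A_C793A did not differ beyond counting error, with R792A_C793A lower by a log2 odds of -0.27 (-0.54 to 0.004). K566A exceeded GKT_GKGT by 2.69 (2.56 to 2.81), and GKT_GKGT exceeded PGKTP_AAAAA by 2.44 (2.20 to 2.70).

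miR-423 is a hairpin of which both arms are commonly found in mouse and human cells. In WT the 3p arm held 63.4% of its 980689 counts. The share was 41.9% in GKT_GKGT, 36.5% in PGKTP_AAAAA (36.3% to 36.7%, the widest of these intervals), 30.5% in Q548A, 18.4% in R792A_C793A and 12.8% in K566A. All 5 mutants were below WT, with GKT_GKGT the nearest and K566A the farthest. The change in log2(3p/5p) was -3.56 (-3.57 to -3.54) in K566A, -2.94 (-2.95 to -2.93) in R792A_C793A, -1.98 (-1.99 to -1.98) in Q548A, -1.59 (-1.61 to -1.58) in PGKTP_AAAAA and -1.27 (-1.28 to -1.26) in GKT_GKGT. By size, the change ranked 23 of 402 hairpins in R792A_C793A, 35 in Q548A, 64 in K566A, 182 in PGKTP_AAAAA and 184 in GKT_GKGT.

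Arms of miR-423 went opposite ways in every mutant. mmu-miR-423-5p stood at 3779.7 CPM in WT, 19030.1 CPM in K566A, 8126 CPM in Q548A, 8865 CPM in R792A_C793A, 5201 CPM in GKT_GKGT and 5056 CPM in PGKTP_AAAAA. It was above WT in 5 of 5 mutants and called higher in K566A (2.33), R792A_C793A (1.23) and Q548A (1.10). mmu-miR-423-3p stood at 6560.4 CPM in WT, 2803 CPM in K566A, 3566 CPM in Q548A, 2003 CPM in R792A_C793A, 3749.6 CPM in GKT_GKGT and 2909 CPM in PGKTP_AAAAA. It was below WT in 5 of 5 mutants and called lower in R792A_C793A (-1.71), K566A (-1.23) and PGKTP_AAAAA (-1.17). These directions were the same with each of the 4 other library sizes tried, but several calls were not. The 5p call in R792A_C793A was lost with median-of-ratios scaling (0.87), TMM factors (0.87) and the total without miR-292-5p (0.996). With median-of-ratios scaling the 5p call in Q548A was lost as well (1.006), and 5p was called higher in PGKTP_AAAAA (1.04). The 3p call in PGKTP_AAAAA was lost with the same 3 library sizes, at -0.55, -0.75 and -0.92. The calls of both arms in K566A and of 3p in R792A_C793A were made with each of them.

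The sum of both arms of miR-423 stood at a log2 ratio to WT of 0.07 (0.07 to 0.08) in R792A_C793A, 0.18 (0.17 to 0.18) in Q548A, -0.21 in GKT_GKGT, -0.38 in PGKTP_AAAAA and 1.08 in K566A. With median-of-ratios scaling it turned to -0.29 in R792A_C793A and to 0.25 in PGKTP_AAAAA, and stood at 0.08 in Q548A, -0.03 in GKT_GKGT and 0.24 in K566A.

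**Figure D2:**
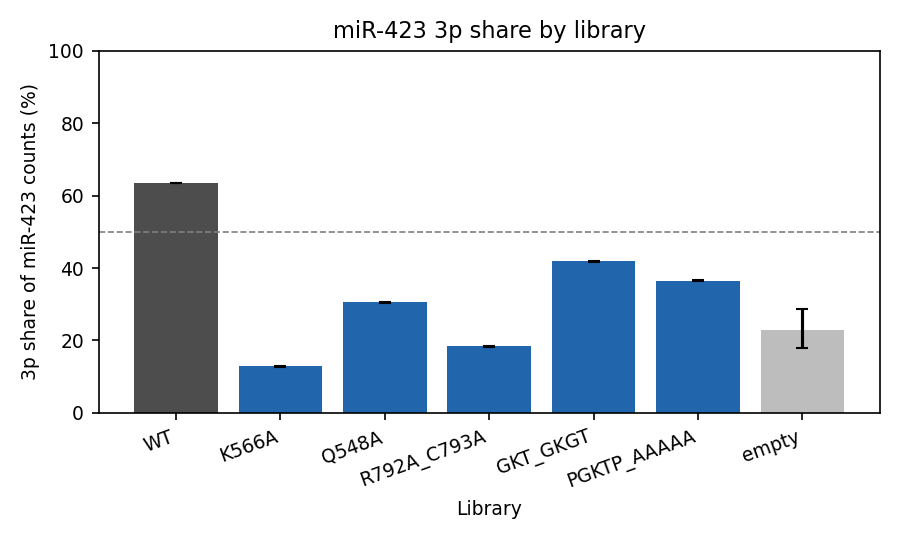
Share of the 3p arm in miR-423 counts (%) in 7 libraries, with exact 95% intervals of counting error and a dashed line at 50%. WT, at 63.4%, is the library above the line; the mutants lie between 12.8% and 41.9%, and the empty control at 23.0%.

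The empty control also differed from WT at miR-423. It held 194 counts of 5p and 58 of 3p, a 3p share of 23.0% (18.0% to 28.7%), against 63.4% in WT. The log2 odds were lower than in WT by -2.53 (-2.99 to -2.11). Of 28 hairpins with at least 100 counts in the empty control, miR-423 was the 1 called against WT (3.57%), and miR-744 was not called there. Many of the 28 had an arm at 0 counts in the empty control and an interval with no upper or no lower bound. Such hairpins had too few counts of the rare arm to be judged. For miR-744, with 0 counts of 3p, the interval had no lower bound and reached 4.83. Against the mutants, the empty control lay above K566A by 1.03 (0.57 to 1.45) and below GKT_GKGT by -1.26 (-1.72 to -0.84). It did not differ beyond counting error from R792A_C793A (0.41, -0.04 to 0.83). Thus the WT library had the highest 3p share of miR-423 of all 7 libraries, and whether this is a trait of wild-type Ago2 or of that 1 library cannot be told apart with 1 library per group.

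Between mutants, the arm ratio of miR-423 differed past 2-fold in 5 of 10 pairs. The order of 3p shares from the lowest was K566A, R792A_C793A, Q548A, PGKTP_AAAAA and GKT_GKGT. Neighbours in it differed by more than counting error but by less than 2-fold in odds, for example K566A below R792A_C793A by -0.62 (-0.63 to -0.60) and GKT_GKGT above PGKTP_AAAAA by 0.33 (0.31 to 0.34).

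miR-151 is a hairpin of the Ptk2 gene, and its 3p arm was the larger in these libraries. The 5p arm held 1.95% of counts in WT (1.88% to 2.01%), 7.16% in Q548A, 3.47% in K566A, 0.768% in R792A_C793A, 0.125% in PGKTP_AAAAA and 0.119% in GKT_GKGT. Q548A and K566A were above WT, and R792A_C793A and both loop mutants were below it. The change in log2(3p/5p) was 4.06 (3.91 to 4.22) in GKT_GKGT, 3.98 (3.82 to 4.15) in PGKTP_AAAAA and 1.36 (1.28 to 1.44) in R792A_C793A. It was -1.96 (-2.03 to -1.89) in Q548A and -0.86 (-0.95 to -0.76) in K566A, the last not called.

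Levels of mmu-miR-151-3p covered a 19.7-fold range. It stood at 1734 CPM in WT, 2318 CPM in K566A, 526 CPM in Q548A, 4286 CPM in R792A_C793A, 6124 CPM in GKT_GKGT and 10378 CPM in PGKTP_AAAAA, where it ranked 8 among all miRNAs of the library, against 38 in WT. It was called higher in PGKTP_AAAAA (2.58), GKT_GKGT (1.82, 1.81 to 1.83) and R792A_C793A (1.31, 1.30 to 1.31), and lower in Q548A (-1.72, -1.74 to -1.71). In K566A it was at 0.42 and not called, and this was the 1 sign among the 40 ratios of arms to WT that turned with the library size (-0.42 with median-of-ratios scaling). mmu-miR-151-5p stood at 34.4 CPM in WT, 83.3 CPM in K566A, 40.5 CPM in Q548A, 33.2 CPM in R792A_C793A, 7.27 CPM in GKT_GKGT and 13.0 CPM in PGKTP_AAAAA. The rare arm was called lower in GKT_GKGT (-2.24, -2.40 to -2.09) and PGKTP_AAAAA (-1.40, -1.57 to -1.24) and higher in K566A (1.28, 1.18 to 1.37). The K566A call was lost with median-of-ratios scaling (0.44), TMM factors (0.30) and the total without miR-292-5p (0.17), and the PGKTP_AAAAA call with the same 3 (-0.78, -0.97 and -1.15). The miR-151-3p call in R792A_C793A was lost with median-of-ratios scaling (0.94) and TMM factors (0.95).

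In both loop mutants the 3p arm of miR-151 was above WT and the 5p arm below it, with each library size. In R792A_C793A the 5p arm stood at -0.05 (-0.14 to 0.03), or -0.41 with median-of-ratios scaling. In Q548A the 3p arm was lower with the 5p arm at 0.24 (0.17 to 0.30). GKT_GKGT and PGKTP_AAAAA did not differ in the arm ratio beyond counting error (0.08, -0.14 to 0.30), and the other 9 of 10 pairs of mutants differed past 2-fold. The empty control held 36 counts of 3p and 3 of 5p, a 5p share of 7.69% (1.62% to 20.9%), too few to tell it from WT.

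miR-674 lies between genes, and its 3p arm was also the larger. The 5p arm held 1.46% of counts in WT (1.41% to 1.52%), 2.69% in Q548A, 2.42% in K566A, 0.419% in R792A_C793A, 0.311% in GKT_GKGT and 0.0901% in PGKTP_AAAAA. As for miR-151, K566A and Q548A lay above WT and the other 3 mutants below it. The change in log2(3p/5p) was 4.04 (3.81 to 4.28) in PGKTP_AAAAA, 2.25 (2.12 to 2.37) in GKT_GKGT and 1.82 (1.72 to 1.91) in R792A_C793A. It was -0.90 (-0.98 to -0.82) in Q548A and -0.74 (-0.93 to -0.55) in K566A, both not called.

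mmu-miR-674-3p stood at 1793 CPM in WT, 694 CPM in K566A, 1091 CPM in Q548A, 5882 CPM in R792A_C793A, 4170.25 CPM in GKT_GKGT and 7071 CPM in PGKTP_AAAAA. It was called higher in PGKTP_AAAAA (1.98, 1.97 to 1.99), R792A_C793A (1.71) and GKT_GKGT (1.22), and lower in K566A (-1.37, -1.40 to -1.34). mmu-miR-674-5p stood at 26.6 CPM in WT, 17.2 CPM in K566A, 30.2 CPM in Q548A, 24.8 CPM in R792A_C793A, 13.0 CPM in GKT_GKGT and 6.38 CPM in PGKTP_AAAAA. It was called lower in PGKTP_AAAAA (-2.06, -2.30 to -1.83). In K566A it stood at -0.63 and was not called by CPM of the total, but it was called lower there with median-of-ratios scaling (-1.47), TMM factors (-1.60) and the total without miR-292-5p (-1.74). In K566A both arms were below WT, so the sum of the hairpin stood at -1.36 (-1.38 to -1.33). The sum of miR-151 in the same library stood at 0.44 (0.42 to 0.46) by CPM and at -0.40 with median-of-ratios scaling, against -2.19 for miR-674.

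Pairs of mutants differed past 2-fold in the arm ratio of miR-674 in 8 of 10 cases. K566A and Q548A did not differ beyond counting error (0.15, -0.03 to 0.35), and R792A_C793A was below GKT_GKGT by -0.43 (-0.57 to -0.30). GKT_GKGT was below PGKTP_AAAAA, with a log2 odds difference of -1.79 (-2.05 to -1.54). The empty control held 67 counts of 3p and 0 of 5p, which allows a 5p share of up to 4.48%.

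**Figure D3:**
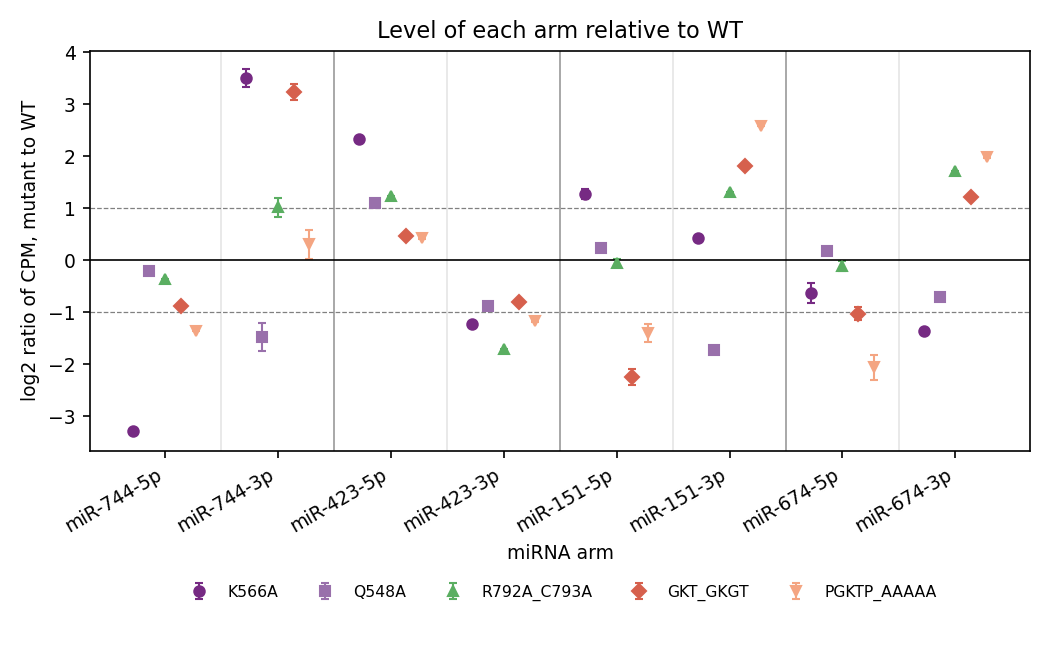
Log2 ratio of CPM to WT for the 8 arms in each of the 5 mutants, with exact 95% intervals of counting error and dashed lines at 2-fold. The arms of miR-423 lie on opposite sides of 0 in all 5 mutants. miR-744 parts most in K566A (-3.28 for 5p and 3.51 for 3p). miR-151 and miR-674 part most in the loop mutants and by less in R792A_C793A and Q548A.

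Calls of single arms stood against these backgrounds. In K566A 47.5% of the 337 tested miRNAs were called higher and 19.6% lower, and 3 of the 8 arms were called higher and 3 lower. The figures were 1.78% and 4.45% in Q548A (1 arm higher, 2 lower), 15.7% and 6.82% in R792A_C793A (3 higher, 1 lower), 11.0% and 11.9% in GKT_GKGT (3 higher, 1 lower) and 7.12% and 33.5% in PGKTP_AAAAA (2 higher, 4 lower). All 8 arms passed the filter of a mean of 10 CPM over the 6 Ago2 libraries, but miR-744-3p (mean 19.9 CPM) did so through K566A and GKT_GKGT, the libraries in which it was called higher, and stood at 1.70 to 9.54 CPM in the others. Its calls are therefore no support for these counts. The median log2 ratio of the 8 arms was -0.10 in K566A against 0.92 for all tested miRNAs, -0.46 against 0.07 in Q548A, 0.48 against 0.43 in R792A_C793A, -0.17 against -0.29 in GKT_GKGT and -0.43 against -0.54 in PGKTP_AAAAA.

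**Figure D4:**
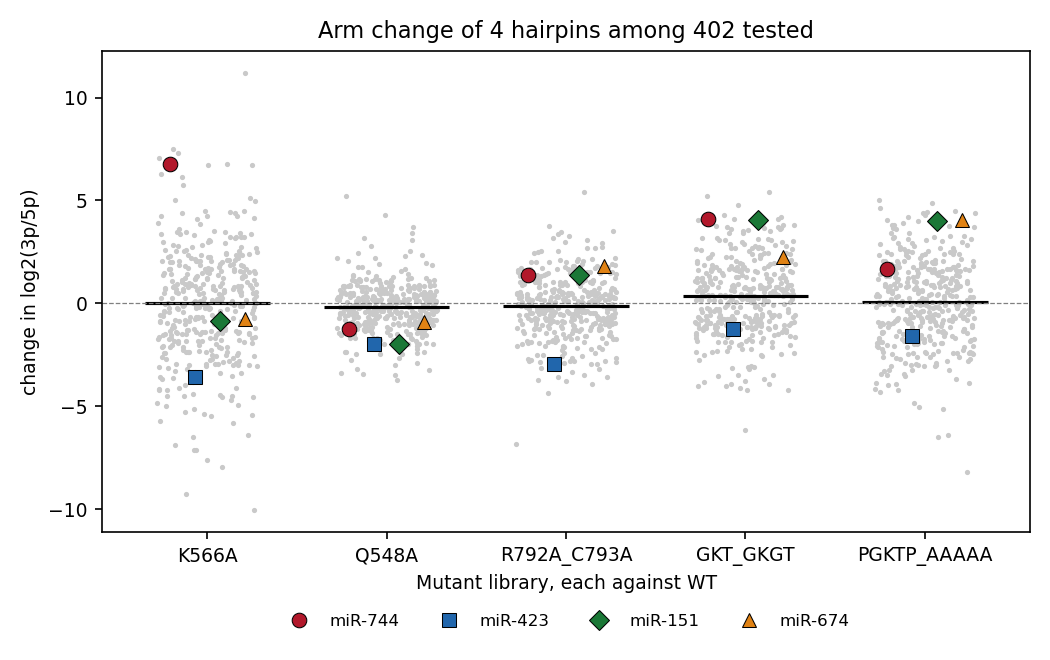
Change in log2(3p/5p) against WT for 402 tested hairpins (grey points, each mutant's median as a black line) with the 4 hairpins marked. miR-744 lies near the top in K566A and GKT_GKGT, miR-151 in GKT_GKGT and PGKTP_AAAAA, and miR-674 in PGKTP_AAAAA. miR-423 lies below 0 in all 5 mutants.

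Hairpins whose arms begin with the same bases were set beside the members. First bases were known for both arms of 301 of the 402 hairpins. Besides miR-744, 43 had a U-first 5p arm and a C-first 3p arm. Hairpins that share an arm were counted separately, here and among the 402, so they are not all independent of each other. In GKT_GKGT 24 of these 43 (55.8%) were called towards 3p and 0 towards 5p, beside 18.2% and 11.2% of all hairpins, with a median change of 2.11 against 0.34 for all hairpins, and miR-744 stood at 4.10. In K566A, where miR-744 changed most (6.79), the same 43 hairpins had a median of 0.12, against 0.04 for all hairpins. That median is the value of a hairpin with an interval of -6.03 to 4.12. Of the 43, 10 (23.3%) were called towards 3p and 7 towards 5p, near the background of 19.2% and 18.7%. Their highest value was 6.27, with an interval that had no lower or upper bound. In Q548A their median was -0.64, against -0.20 for all, with miR-744 at -1.26. There 0 of the 43 were called towards 3p and 8 towards 5p, beside 2.99% and 6.22% of all hairpins. In PGKTP_AAAAA 5 (11.6%) were called towards 3p and 2 towards 5p, beside 13.9% and 10.7%. Their median there was 0.64 (0.06 for all), with miR-744 at 1.67. In R792A_C793A 4 were called each way, beside 8.71% towards 3p and 11.4% towards 5p. The median there was 0.14 (-0.13 for all), with miR-744 at 1.39. Hairpins of this class with the most WT counts were miR-26a-2, miR-26a-1 and miR-134, the first pair of which share their 5p arm. Their changes in GKT_GKGT were 1.06, 1.84 and 3.57, where the 3p arm of miR-26a-1 held 0.00247% of counts. Counting was thin in 7 or 8 of the 43, depending on the mutant, with 3 counts or fewer of an arm in WT and in the mutant.

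For miR-423, 25 other hairpins had a U-first 5p and an A-first 3p arm. Their median change was -0.79 in K566A (0.04 for all hairpins), -0.65 in Q548A (-0.20), -0.59 in PGKTP_AAAAA (0.06), 0.11 in R792A_C793A (-0.13) and 0.14 in GKT_GKGT (0.34). The median in PGKTP_AAAAA is the value of a hairpin whose interval had no lower bound and reached 4.15. In K566A 5 of the 25 (20%) were called towards 3p and 4 towards 5p, beside 19.2% and 18.7% of all hairpins. In Q548A 0 were called towards 3p and 3 towards 5p, beside 2.99% and 6.22%. In PGKTP_AAAAA 1 was called towards 3p and 3 towards 5p, beside 13.9% and 10.7%. In R792A_C793A, 4 were called towards 5p and 1 towards 3p, beside 11.4% and 8.71% of all hairpins. In GKT_GKGT 3 were called each way, beside 11.2% towards 5p and 18.2% towards 3p. In 5 or 6 of the 25, depending on the mutant, counting was as thin as defined above. The 3 with the most WT counts did not follow 1 direction: miR-433 was at -0.93 and miR-125a at 4.39 in K566A, and miR-672, whose 3p arm held 0.0823% of counts there, at 2.37. For miR-674, 11 other hairpins had a G-first 5p and a C-first 3p arm, of which 3 were called towards 3p in PGKTP_AAAAA (13.9% of all hairpins were) and 1 in GKT_GKGT (18.2%). Their median in PGKTP_AAAAA was 2.05 (0.06 for all), which is the value of miR-1224 with an interval of -4.13 to 6.12, and in GKT_GKGT 0.33 (0.34 for all). Counting was thin in 4 of the 11 in PGKTP_AAAAA, K566A and Q548A, and in 3 in GKT_GKGT and R792A_C793A. The 3 of the 11 with the most WT counts stood at 2.55 (miR-1981), 2.16 (miR-301a) and 1.61 (miR-505) in PGKTP_AAAAA, and the 3p arm of miR-505 was at 0 in K566A. In R792A_C793A they stood at -2.13, -0.38 and 1.71. There 0 of the 11 were called towards 3p and 2 towards 5p, with a median of -0.38 (-0.13 for all), while miR-674 stood at 1.82. In K566A 1 was called each way, and the median of 2.55 (0.04 for all) is the value of miR-505, with miR-674 at -0.74. In Q548A 0 were called towards 3p and 1 towards 5p, with a median of -0.55 (-0.20 for all) and miR-674 at -0.90.

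The hairpins most like each member were found by the root mean square (RMS) difference of the change in log2 arm ratio over the 5 mutants, taken in whichever orientation of the arms was closer, among 173 other hairpins with at least 10 counts of both arms in every Ago2 library. Nearest to miR-423 were miR-18a (RMS difference 0.52), a member of the miR-17-92 cluster, miR-532 (0.62) and miR-130b with its arms reversed (0.69). Both arms of miR-18a begin with the same bases as those of miR-423, and its changes were -3.30 in K566A, -1.98 in PGKTP_AAAAA, -1.89 in R792A_C793A, -1.78 in Q548A and -1.21 in GKT_GKGT. Nearest to miR-744 were miR-667 reversed (1.14), miR-211 (1.32) and miR-3071 reversed (1.55, uncertain because its locus overlaps that of miR-136), all with larger changes in PGKTP_AAAAA (-3.27, 3.88 and -4.14) than its 1.67. miR-151 and miR-674 were each other's second nearest (0.96). The nearest to both was miR-199a reversed, at 0.91 from miR-151 and 0.68 from miR-674, with miR-199b reversed next after these at 0.99 and 1.03. miR-199a moved towards its C-first 5p arm in GKT_GKGT (-3.11) and PGKTP_AAAAA (-3.85). Both miR-199 hairpins are also among the fibroblast miRNAs summed above. With at least 100 counts of both arms in every Ago2 library, neither miR-199 hairpin was among the 3 nearest to miR-151 or miR-674. These distances describe 5 ratios that share the WT library.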

How the data were processed

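Ago2-bound small RNAs of 7 samples, 1 per group, were made into libraries with a NEBNext kit and sequenced on an Illumina HiSeq, per the labels' protocols. The authors deposited raw counts for 1078 mature miRNA loci, not normalized. The submitters' processing notes name CASAVA 1.8.2, TopHat2 2.0.9 and mm9. Not given in the sources used here are the counting program, its use of strand and how it treated reads that match several loci. Adapter ligation can favour some sequences, which bears on a share of arms and was not tested.

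Each of 959 mature names was counted once, by its highest locus, and 9 names with counts equal to another's within 1% or 3 counts (sum of at least 200) were merged, leaving 950. Loci of the 5p and 3p arms whose starts lay within 150 nt were paired as a hairpin. The minimum was 100 counts per hairpin, summed over the 6 Ago2 libraries, and a mean of 10 CPM per miRNA. Changes in log2(3p/5p) used a pseudocount of 0.5. Intervals were exact Clopper-Pearson for shares, exact conditional for ratios and odds ratios, and Woolf's where all 4 counts reached 500. A count of 0 was taken to allow 3 counts. Computation used Python 3.11.15 and scipy 1.17.1, and the intervals were tested on simulated data. Structures were predicted with RNAfold 2.7.2.

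The members, lists and rules were chosen with earlier results of these data known. Besides the 8 members, the text names the 3 hairpins nearest each member hairpin, the 3 with the most WT counts in each first-base class, and, chosen after their values were seen, miR-136, miR-193b, miR-1224, miR-1947-3p and miR-292-5p. Alternatives changed the library size (median-of-ratios, edgeR 4.0.16 TMM, total without miR-292-5p, total over all rows), the pseudocount, the filters, the fold limit, and subtraction of the empty control.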

Additional observations from a re-analysis of the deposited data

How the results depend on the processing

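Arm shares of the 4 hairpins were the same within their intervals after the counts of the empty control were subtracted (24 of 24 values) and after summing rows (28 of 28, each arm having 1 row), and so were the 20 changes in log2(3p/5p) with a pseudocount of 5 or after subtraction. The empty control was subtracted unscaled, and its total was 0.00224 of that of K566A, the smallest Ago2 library. Its subtraction could therefore move these values little, and is a weak check. Of the 40 log2 ratios of arms to WT, 9 changed their call under at least 1 of the 4 other library sizes, and 1, not called, changed sign. By the standard used for the shares, most of the 40 moved out of their intervals. This held for 39 with median-of-ratios scaling, 37 with TMM factors and 36 with the total without miR-292-5p. With the total over all rows 10 moved. The intervals of CPM ratios thus do not cover the choice of library size. With median-of-ratios scaling the 8 arms had 2 higher and 4 lower in K566A, 0 and 2 in Q548A, 1 and 1 in R792A_C793A, 3 and 1 in GKT_GKGT, and 3 and 1 in PGKTP_AAAAA. Over all tested miRNAs (337 in the main setting), that scaling gave 111 higher and 106 lower in K566A and 5 and 20 in Q548A. It gave 20 and 43 in R792A_C793A, 42 and 28 in GKT_GKGT, and 55 and 57 in PGKTP_AAAAA. With both arms at 100 counts or more in every Ago2 library, 78 hairpins were compared, and of the 3 nearest 2 were kept for miR-423 and 1 for each of the others. No paired analysis was possible because each group has 1 library and no test was made. Depth limits K566A most among the Ago2 libraries, and the empty control held 3 counts or fewer of the rare arms of miR-744, miR-151 and miR-674.

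Counts over all hairpins and miRNAs moved by over 1.5 times as follows. A stricter fold limit can only lower such counts, and leaving out the filter can only raise them. For the change of scaling, the cause was not tested. Past 4-fold, hairpins called towards 3p and 5p numbered 38 and 44 in K566A, 1 and 1 in Q548A, 6 and 14 in R792A_C793A, 45 and 19 in GKT_GKGT, and 19 and 22 in PGKTP_AAAAA. With that limit, miRNAs called higher and lower numbered 96 and 42 in K566A, 0 and 1 in Q548A, 6 and 5 in R792A_C793A, 19 and 9 in GKT_GKGT, and 6 and 41 in PGKTP_AAAAA. Without the filter the base is 950 miRNAs in place of 337, so these counts are not to be set beside the main ones as they stand. With no filter, 272 were higher and 115 lower in K566A, 31 lower in Q548A, 86 and 39 in R792A_C793A, 75 and 72 in GKT_GKGT, and 38 and 198 in PGKTP_AAAAA. With median-of-ratios scaling, 106 were lower in K566A, 20 higher and 43 lower in R792A_C793A, and 55 higher and 57 lower in PGKTP_AAAAA.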
